A study of Mus musculus with 4 samples.

Results

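The mitosis and G2M genes are 44 genes that act between the end of DNA replication and the separation of daughter cells, chosen by name from the 32285 genes of the deposited count matrices and followed here across marker-gated bone marrow lineages and treatments. The rule is a list of names and holds no threshold on a measured value. All 44 were found in both matrices. The cells came from the bone marrow of 6 female mice, 6 weeks old, of 1 genotype, Tppp3CreER LSLTdTomato, in which a tamoxifen-inducible Cre driven by Tppp3 switches on a Cre-dependent tdTomato reporter. In 2 mice, called tamoxifen+rapamycin, both agents were given on postnatal days 0 and 3. In 2 mice, called late rapamycin, rapamycin alone was given on postnatal day 30, so their reporter was never induced. In the remaining 2 mice, called tamoxifen, tamoxifen alone was given on postnatal days 0 and 3. The labels name Lin-Sca+Kit+ cells, Lin-Sca-Kit+ cells and whole bone marrow as sources, and no cell can be traced to its sort. Shares of cell types therefore follow the sorting as well as the marrow.

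Entry into mitosis depends on cyclin B and the kinase Cdk1, which together drive chromosome condensation, nuclear envelope breakdown and spindle assembly. Kinetochores then attach chromosomes to the spindle, the anaphase-promoting complex with its activator Cdc20 releases the sister chromatids by removing securin, and the cleavage furrow divides the cell. Most of these genes are transcribed in a burst late in the cycle and are low in resting cells. Adult haematopoietic stem cells are mostly quiescent, their progeny divide more often, and neutrophils stop dividing at the end of the myelocyte stage.

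Depth and cell numbers set what could be seen. After demultiplexing and filtering 34428 cells remained, 5484 to 6388 per mouse, with 22729890 to 37118402 gene UMIs per mouse (UMIs are unique molecular identifiers, each counting a captured transcript). Of the cell barcodes, 126 occurred on both processing days, and 56 of these were kept on both. Cells were placed in gates by markers that include none of the 44 genes, and 11 gates held at least 50 cells in every mouse. Late rapamycin replicate 1 stood apart, with 1142 myelocyte and 1300 neutrophil progenitor cells, against 322 to 601 in each of these gates in the other 5 mice, and with only 70 pro-B/pre-B cells. The sources of mouse numbers disagree. In the deposited hashtag table tamoxifen+rapamycin has hashtags 1 and 4 and tamoxifen has 2 and 5, whereas tamoxifen mice are numbered 1 and 4 by the sample labels. The table was followed, its control mice (hashtags 3 and 6) being read as late rapamycin. If the label numbers are hashtag numbers, the tamoxifen+rapamycin and tamoxifen mice are exchanged throughout.

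Promoters of genes of this kind are known for 2 short elements, the cell cycle genes homology region, whose usual core reads TTTGAA and which is bound by the MuvB complexes, and CCAAT boxes, which are bound by NF-Y. RefSeq promoter sequences (build GRCm38.p6, 250 bases before to 50 bases after the start site) were at hand for 40 of the 44 genes, all but Smc4, Dlgap5, Aurkb and Tpx2. The letters TTTGAA, on either strand, were found in 28 of the 40 promoters (70.0%), against 18.1% of all 27025 promoters of the same length. CCAAT, on either strand, was found in 29 (72.5%), against 37.9% of all promoters. Both were found in 23 (57.5%), against 7.12% of all promoters, and at least 2 CCAAT in 24 (60.0%), against 12.2%. Of the 117 matches, 2 pairs shared a base. Neighbouring CCAAT on the same strand lay 30 to 35 bases apart in 12 of 43 pairs (27.9%), against 12.2% of such pairs in all promoters. A match is a run of letters and not a measured binding site. The 5 promoters below show the layout, with the matches of both elements in capitals (CCAAT boxes on the other strand read as ATTGG). The windows of cyclin B2, Cdc20, Cdk1 and borealin (Cdca8) carry both elements. That of securin (Pttg1), the gene called between treatments, carries neither match. The same is so for 5 others of the 40 (Birc5, Neil3, Nuf2, Nusap1 and Tacc3). The Pttg1 window lies wholly inside the annotated gene (chr11:43420250-43426251, GRCm38, minus strand). Sequence upstream of the outermost annotated start was therefore not searched, and whether Pttg1 has either element there is not known. The windows of Cdca8, Cdca3, Kif2c, Lbr and Tmpo also lie inside their genes.
Ccnb2 (chr9:70421505-70421804, minus strand): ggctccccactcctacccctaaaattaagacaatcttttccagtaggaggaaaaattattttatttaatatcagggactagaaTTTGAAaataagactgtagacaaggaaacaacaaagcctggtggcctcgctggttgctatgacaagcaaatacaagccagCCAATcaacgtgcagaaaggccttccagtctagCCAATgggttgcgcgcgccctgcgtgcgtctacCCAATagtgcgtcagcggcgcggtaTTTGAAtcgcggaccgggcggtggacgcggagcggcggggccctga
Cdc20 (chr4:118437294-118437593, minus strand): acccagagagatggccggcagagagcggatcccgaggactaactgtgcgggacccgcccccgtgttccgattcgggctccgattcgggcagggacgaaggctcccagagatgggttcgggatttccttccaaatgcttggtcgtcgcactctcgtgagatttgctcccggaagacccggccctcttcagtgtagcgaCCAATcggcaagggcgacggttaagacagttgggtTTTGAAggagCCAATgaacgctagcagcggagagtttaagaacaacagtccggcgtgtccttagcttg
Cdk1 (chr10:69352863-69353162, minus strand): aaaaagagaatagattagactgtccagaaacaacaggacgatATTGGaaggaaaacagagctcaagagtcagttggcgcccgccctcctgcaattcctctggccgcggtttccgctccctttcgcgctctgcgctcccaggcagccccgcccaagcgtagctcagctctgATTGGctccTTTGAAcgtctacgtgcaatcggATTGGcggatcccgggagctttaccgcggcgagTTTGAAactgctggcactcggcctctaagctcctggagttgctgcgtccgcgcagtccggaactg
Cdca8 (chr4:124936868-124937167, minus strand): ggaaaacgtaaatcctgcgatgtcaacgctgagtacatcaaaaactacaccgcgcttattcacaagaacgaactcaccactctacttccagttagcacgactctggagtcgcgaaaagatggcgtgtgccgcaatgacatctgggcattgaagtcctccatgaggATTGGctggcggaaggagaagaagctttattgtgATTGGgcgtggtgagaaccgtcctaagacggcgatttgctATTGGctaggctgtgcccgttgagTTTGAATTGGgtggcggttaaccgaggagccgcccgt
Pttg1 (chr11:43425932-43426231, minus strand): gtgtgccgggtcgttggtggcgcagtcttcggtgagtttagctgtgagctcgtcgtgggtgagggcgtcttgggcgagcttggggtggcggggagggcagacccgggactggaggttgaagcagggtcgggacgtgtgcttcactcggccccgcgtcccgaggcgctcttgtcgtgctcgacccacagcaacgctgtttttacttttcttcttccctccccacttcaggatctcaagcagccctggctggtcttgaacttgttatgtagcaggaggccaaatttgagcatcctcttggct
The 3 CCAAT of the Ccnb2 promoter start at positions -87, -54 and -21 relative to the start site. In the Cdk1 promoter the matches nearest to the start site are ATTGG at -80 and -48 and TTTGAA at -71 and -15. The Cdca8 promoter holds ATTGG at -85, -51 and -11, and a further ATTGG that overlaps its TTTGAA.

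The share of cells with division transcripts in each gate was read from 10 of the genes, called core division genes here. They are Mki67, Top2a, Cdk1, Ube2c, Birc5, Tpx2, Nusap1, Cenpf, Ccnb1 and Ccnb2. This share does not assign cells to a stage of the cycle. Each cell was thinned to 1000 UMIs, and cells with at least 2 core UMIs were counted. The erythroid progenitor gate was the highest, with a mean share over the 6 mice of 66.7% ± 2.22 (SD, n = 6; range 63.3 to 69.5%). The pro-B/pre-B gate had 47.0% ± 16.2, the neutrophil progenitor gate 44.9% ± 4.12, the megakaryocyte progenitor gate 41.2% ± 7.57 and the monocyte gate 32.4% ± 9.36. Myelocytes (25.6% ± 5.13), multipotent progenitors (23.9% ± 1.5) and lymphoid-primed progenitors (22.2% ± 2.60) did not differ beyond their spread. The HSC gate had 11.5% ± 2.51, with 8.01% in the lowest and 14.3% in the highest mouse, and lay below every multipotent progenitor value (lowest 21.8%). Mature B cells had 8.20% ± 6.77, a range that overlapped the HSC gate. Mature neutrophils, which do not divide, had 0.28% ± 0.33, taken here as the background level. Their median depth was 1374 UMIs per cell before thinning, against 3061 in the HSC gate.

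Some shares differed between the processing days. The pro-B/pre-B share was 55.2 to 64.4% in the 3 mice of day 1 and 28.9 to 35.7% in the 3 mice of day 2, with no overlap. The monocyte share was 34.2 to 47.4% on day 1 and 21.3 to 27.5% on day 2. Megakaryocyte progenitors had 43.6 to 53.9% on day 1 and 33.0 to 37.1% on day 2. Neutrophil progenitors had 44.2 to 52.3% and 41.0 to 43.4%, and mature B cells 6.19 to 18.8% and 1.96 to 4.43%, in the same order. In the remaining gates the ranges of the days overlapped. In the HSC gate the day 1 and day 2 values were 11.3 and 9.43% in tamoxifen+rapamycin mice, 14.2 and 14.3% in late rapamycin mice, and 11.7 and 8.01% in tamoxifen mice. Each day holds 1 mouse of each treatment, so treatments were compared within days.

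**Figure D1:**
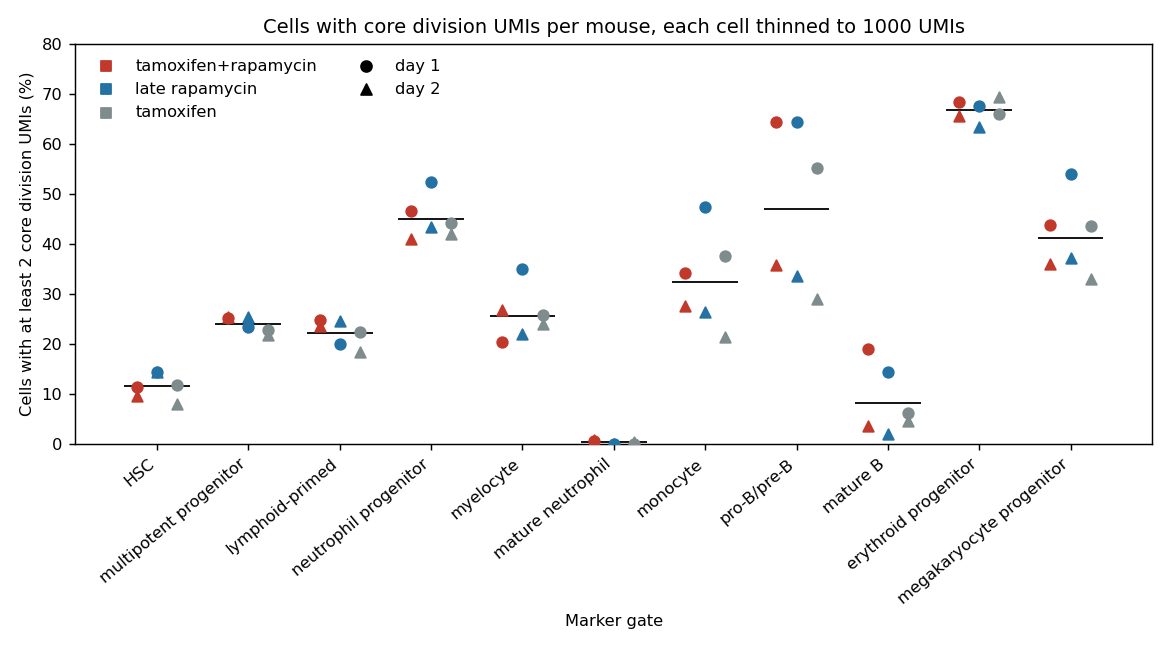
Percentage of cells with at least 2 UMIs of the 10 core division genes (vertical axis) in each of 11 marker gates (horizontal axis), after thinning every cell to 1000 UMIs. Each point is 1 of 6 mice, coloured by treatment and shaped by processing day, and the line is the mean of the 6. The erythroid progenitor points lie between 63.3 and 69.5%, the HSC points between 8.01 and 14.3%, and the pro-B/pre-B points split by day.

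The summed level of the 44 genes ordered the gates differently from the shares, on the CPM scale (UMIs of a gene scaled to a common total of gene UMIs in all cells of a gate, not corrected for length and used only to compare the same genes between gates). The sum was 13414 ± 3339 CPM in the pro-B/pre-B gate and 8317 ± 190 CPM in the erythroid progenitor gate (SD, n = 6 mice). It was 7256 ± 995 CPM in monocytes, 6760 ± 765 CPM in megakaryocyte progenitors, 5957 ± 264 CPM in neutrophil progenitors, 5839 ± 554 CPM in myelocytes, 5047 ± 285 CPM in multipotent progenitors and 3292 ± 363 CPM in the HSC gate. Mature neutrophils were lowest with 1184 ± 83.4 CPM. The pro-B/pre-B gate had the highest mean level of 38 of the 44 genes. The exceptions were Cks2, Cenpa and Tubb4b, highest in erythroid progenitors, Cks1b in neutrophil progenitors, Ckap2l in megakaryocyte progenitors and Lbr in mature neutrophils. Mature neutrophils had the lowest mean level of 41 genes.

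**Figure D2:**
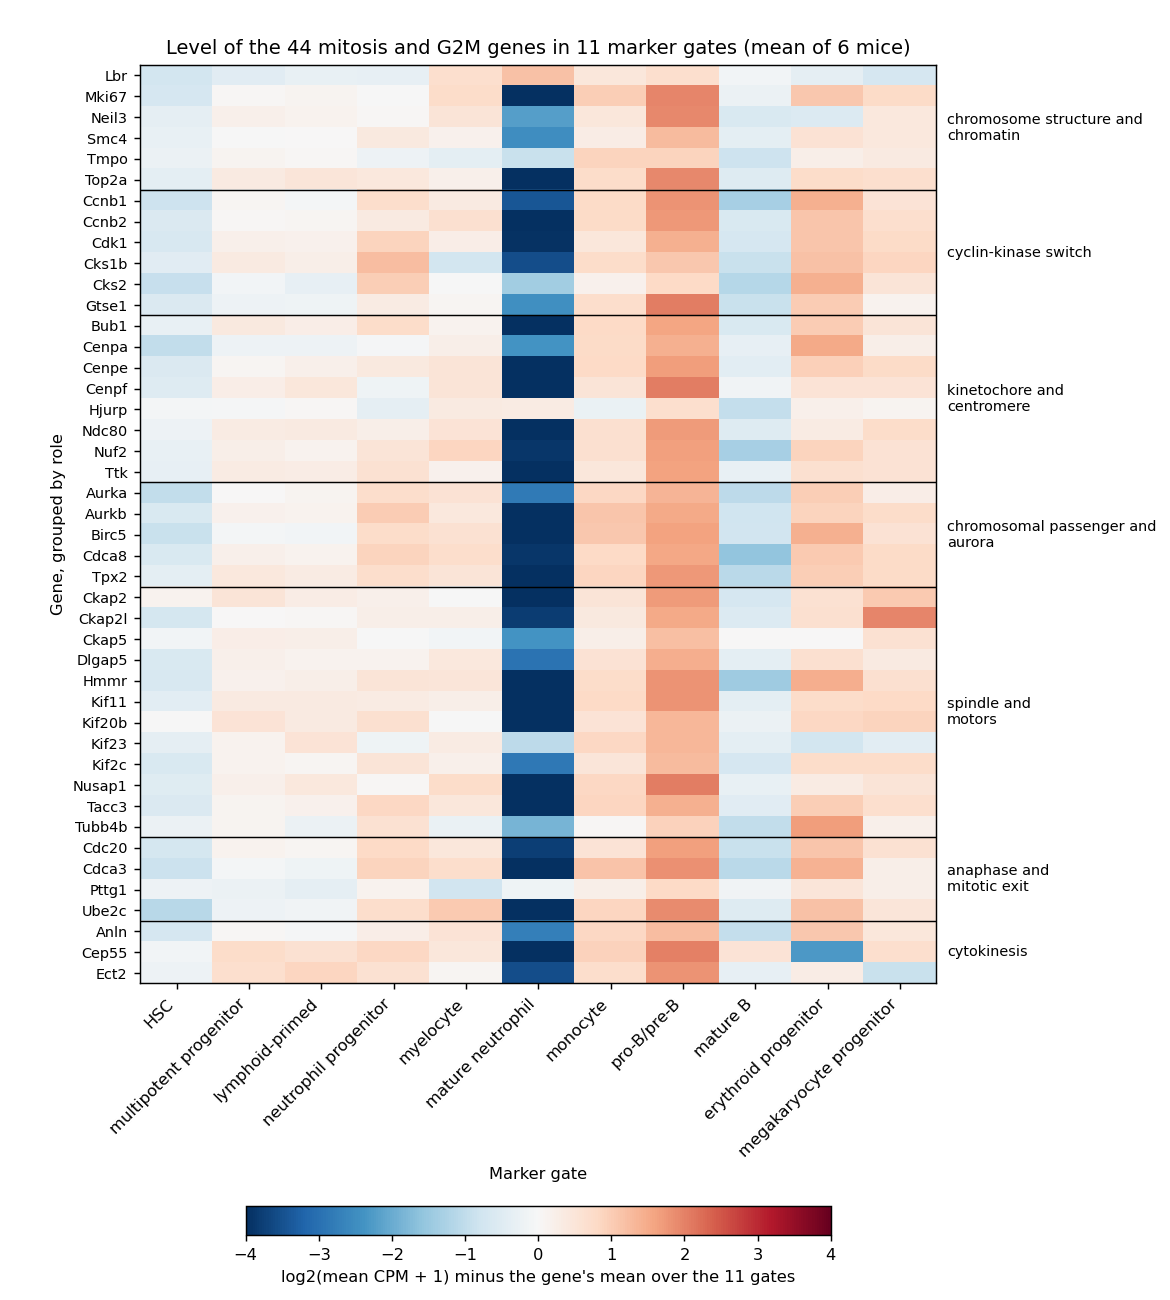
Level of each of the 44 genes (rows, grouped by role) in 11 marker gates (columns), as log2 of the mean CPM of 6 mice plus 1 minus the mean of that gene over the gates. Red is above and blue below the mean of the gene, and colours stop at 4 in either direction. The mature neutrophil column is blue for most genes but not for Lbr and Hjurp, and the cells of Cep55 in erythroid progenitors and Ckap2l in megakaryocyte progenitors stand out from their columns.

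Between gates, counts summed per mouse and gate were compared in 1 fit over the 11 gates and 6 mice, with the mouse as a block (edgeR quasi-likelihood test, Benjamini-Hochberg adjustment over the 11698 genes tested, calls at an adjusted p under 0.05). All 44 genes passed the filter on low counts in that fit. A bulk sum cannot tell more dividing cells from more transcript per dividing cell. Differences below are log2 differences from this fit with their standard errors. Plain library totals in place of the TMM scaling moved the median of all genes by -0.35 in neutrophil and erythroid progenitors, -0.12 in megakaryocyte progenitors and -0.56 in mature neutrophils, and turned the sign of at most 1 member in each of these.

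Multipotent progenitors, gated on Flt3, Cd34, Cd48 and Sox4, had higher levels of 41 of the 44 genes than the HSC gate and a lower level of none. The median difference was 0.80 against 0.01 over all genes. Over all genes tested, 14.1% were called higher and 12.8% lower. In the cyclin-kinase group, Cdk1, the kinase that triggers mitosis, had 67.6 to 86.3 CPM (median 80.5) in multipotent progenitors and 33.5 to 54.0 CPM (median 43.9) in the HSC gate. The 6 mice did not overlap, and the difference was 0.91 ± 0.14 (adjusted p = 8.4e-07). All 5 chromosomal passenger and aurora genes rose, by 0.86 to 1.07, among them Aurka, the centrosome kinase that builds the spindle poles, and Birc5 (survivin), a subunit of the passenger complex. All 12 spindle and motor genes rose, with a median of 0.74, among them Kif11, the motor that pushes the spindle poles apart, at 0.86 ± 0.13 (adjusted p = 3.9e-07). The 3 cytokinesis genes rose as well, Ect2, which activates the RhoA switch of the cleavage furrow, by 0.95 ± 0.13 (adjusted p = 2.0e-08). The 3 genes not called were Pttg1 (securin, -0.03), Hjurp (the chaperone that deposits the centromeric histone, 0.10) and Gtse1 (a microtubule-associated regulator of G2, 0.52, with under 10 CPM in every mouse of either gate).

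Lymphoid-primed and multipotent progenitors were close. Of the 44 genes, 1 was called higher and 1 lower, against 4.78% and 3.77% of all genes tested, and the median difference was -0.01. The 2 calls were Kif23, a motor of the central spindle (0.42 ± 0.13, adjusted p = 0.022), and Tubb4b, a beta-tubulin (-0.35 ± 0.12, adjusted p = 0.049). Leaving out tamoxifen replicate 1 ended the Kif23 call (adjusted p = 0.13), as did leaving out tamoxifen replicate 2 (0.073) or tamoxifen+rapamycin replicate 2 (0.065). The Tubb4b call was lost without any mouse other than late rapamycin replicate 1, with adjusted p-values of 0.057 to 0.19.

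Neutrophil progenitors had higher levels of 43 of the 44 genes than the HSC gate, with a median difference of 1.25 against 0.01 over all genes. Of all genes tested, 37.1% were called higher and 36.9% lower. By role, the median difference was 1.98 for the passenger and aurora genes, 1.94 for the anaphase and exit genes, 1.87 for the cyclin-kinase genes, 1.25 for the cytokinesis genes, 1.20 for the kinetochore genes, 1.06 for the spindle genes and 0.88 for the chromosome structure genes. The roles overlap, with anaphase genes down to 0.68 and spindle genes up to 1.71, and differences between roles were not tested. Cks2, a small subunit of the Cdk1 complex, had 309.8 to 377.5 CPM (median 354.3) in neutrophil progenitors and 71.0 to 136 CPM (median 84.0) in the HSC gate. It differed by 2.27 ± 0.13 (adjusted p = 3.2e-26), the largest difference of the 44 in this comparison. Aurkb, the kinase of the passenger complex, differed by 1.98 ± 0.13 (adjusted p = 4.2e-22). Hjurp was the only gene not called (0.09 ± 0.11), and its sign turned under 4 of 14 alternatives.

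Erythroid progenitors had higher levels of 41 genes and a lower level of 1, with a median of 1.73 against -0.08 over all genes. Of all genes tested, 38.0% were called higher and 42.9% lower. The largest difference was that of Cenpa, the histone variant that marks centromeres, with 299.2 to 341.9 CPM (median 333) in erythroid progenitors and 42.3 to 75.9 CPM (median 57.7) in the HSC gate. Its difference was 2.81 ± 0.15 (adjusted p = 6.7e-27). Birc5 (2.71), Cks2 (2.70), Ube2c (2.64), Ccnb1 (2.61) and Cdca3 (2.60) followed. Ube2c is the ubiquitin-conjugating enzyme of the anaphase-promoting complex, Ccnb1 is cyclin B1, and Cdca3 is a trigger of mitotic entry.

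Cep55, the midbody scaffold that recruits the abscission machinery at the end of cytokinesis, went the other way. It had 4.83 to 7.83 CPM (median 5.40) in erythroid progenitors and 25.8 to 37.7 CPM (median 28.2) in the HSC gate. The 6 erythroid values lay below all 6 HSC values although the share of cells with core UMIs was highest in the erythroid gate. The difference was -2.03 ± 0.18 (adjusted p = 1.7e-16), and over the 14 alternatives it lay between -2.38 and -1.92 with every call kept. The gene lies on chr19:38055011-38074423 (GRCm38, plus strand). The other 2 cytokinesis genes rose, Anln (anillin, an actin-binding protein of the contractile ring) by 2.07 and Ect2 by 0.86. Kif23 (-0.06) and Neil3, a DNA glycosylase that acts on replication-linked damage (0.16), were not called.

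The remaining members rose in erythroid progenitors by varied amounts. At the kinetochore, Ndc80 and Nuf2, subunits of the complex that grips microtubules, differed from the HSC gate by 0.86 and 1.55. The checkpoint kinases Bub1 and Ttk (Mps1) differed by 1.74 and 1.32. Bub1 had 75.3 to 94.3 CPM (median 90.2) in erythroid progenitors and 20.3 to 59.0 CPM (median 31.8) in the HSC gate, without overlap. On the spindle, Tacc3, which crosslinks kinetochore fibres, differed by 1.89, Dlgap5 (HURP), which stabilises those fibres, by 1.54, and the kinesin Kif20b by 1.19. The microtubule-associated genes Ckap2 (0.80) and Ckap5 (0.48) moved less. Ckap5 had 161.6 to 182.4 CPM (median 170.7) in erythroid progenitors and 133.1 to 174.4 CPM (median 155.2) in the HSC gate, ranges that overlap. Smc4, a condensin subunit, differed by 1.24, the spindle assembly factor Tpx2 by 1.72, and cyclin B2 (Ccnb2) by 2.04.

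Megakaryocyte progenitors, a comparison added after the levels were seen, had higher levels of 40 genes and a lower level of 1 relative to the HSC gate, with a median of 1.18 against 0.00 over all genes. Of all genes tested, 23.9% were called higher and 21.8% lower. Ckap2l (radmis), a microtubule-associated protein of the spindle poles, had 167.5 to 322.9 CPM (median 237.6) in megakaryocyte progenitors and 27.9 to 52.6 CPM (median 36.6) in the HSC gate. All 6 values lay above the highest mouse of every gate except the pro-B/pre-B gate (111.4 to 265.5 CPM). The difference from the HSC gate was 2.80 ± 0.17 (adjusted p = 1.8e-23), against at most 1.69 (Ube2c) for the other members. Ect2 was the exception in the other direction, with 11.4 to 33.4 CPM (median 21.8) in megakaryocyte progenitors and 29.7 to 46.3 CPM (median 34.9) in the HSC gate. These ranges overlap. The difference was -0.64 ± 0.21 (adjusted p = 0.0085), and the call was lost without tamoxifen+rapamycin replicate 2 (adjusted p = 0.11) or late rapamycin replicate 2 (adjusted p = 0.060). The megakaryocyte sums of Ect2 rest on 6 to 17 UMIs per mouse. Pttg1 (0.50), Lbr (0.18) and Kif23 (0.00) were not called.

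The 4 comparisons with the HSC gate share the HSC samples. The plot of differences between gates shows Cep55, Ckap2l and Ect2 apart from the other members.

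**Figure D3:**
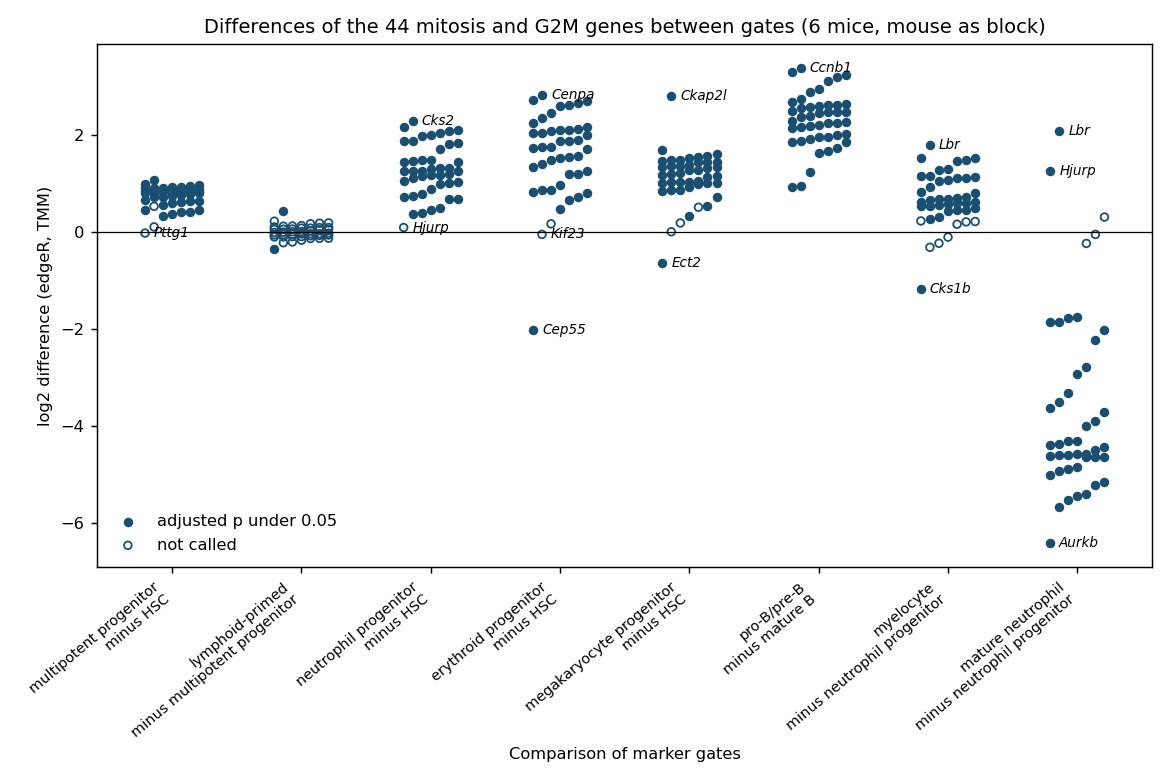
Log2 difference (vertical axis, edgeR with TMM scaling) of each of the 44 genes in 8 comparisons of marker gates (horizontal axis), over 6 mice with the mouse as block. Filled points have an adjusted p under 0.05 and open points do not, with the first-named gate of a label minus the second. Cep55 at -2.03 in erythroid progenitors, Ckap2l at 2.80 and Ect2 at -0.64 in megakaryocyte progenitors, and Lbr at 2.08 and Hjurp at 1.24 in mature neutrophils lie outside the other points.

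In the B lineage all 44 genes were higher in pro-B/pre-B than in mature B cells, against 20.9% of all genes called higher and 16.0% lower, with a median of 2.33 against 0.07 over all genes. Cyclin B1 (Ccnb1) had 96.8 to 170.1 CPM (median 120.3) in pro-B/pre-B cells and 8.05 to 29.2 CPM (median 11.1) in mature B cells. The groups did not overlap, and the difference of 3.38 ± 0.35 (adjusted p = 6.5e-13) was the largest of the 44. Hmmr, a spindle-pole microtubule protein, differed by 3.29, and Cdca8, the borealin subunit of the passenger complex, by 3.19. Lbr, the lamin B receptor of the inner nuclear membrane, had the smallest difference (0.92 ± 0.12, adjusted p = 4.0e-09). The mature B sum of the 44 genes was 1678 to 2696 CPM in 5 mice and 7435 CPM in tamoxifen+rapamycin replicate 1.

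Along the neutrophil lineage the genes did not fall together. Myelocytes, a comparison also added after the levels were seen, had higher levels than neutrophil progenitors for 36 genes and a lower level for 1, with a median of 0.63 against -0.19 over all genes. Of all genes tested, 36.3% were called higher and 43.8% lower. These counts depend on the scaling. Plain library totals moved the median of all genes by -0.78. With them, 14 members were called higher and 15 lower, and 23 members had the opposite sign. The share of all genes called with that scaling is not given here. Mki67, the proliferation marker that coats mitotic chromosomes, differed by 1.52 ± 0.15 (adjusted p = 1.5e-14), with 688.7 to 1005 CPM (median 807.2) in myelocytes and 441 to 583.8 CPM (median 470.6) in neutrophil progenitors. Nusap1, a spindle-assembly protein, differed by 1.53 and Cenpf, a late-cycle kinetochore protein, by 1.46. Cks1b, like Cks2 a small Cdk-binding subunit, was the gene called lower. It had 32.4 to 63.8 CPM (median 54.4) in myelocytes and 192.6 to 230.4 CPM (median 212.2) in neutrophil progenitors. Its difference was -1.18 ± 0.12 (adjusted p = 7.5e-15) and lay between -1.97 and -0.94 over the 14 alternatives.

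In mature neutrophils 39 of the 44 genes were lower than in neutrophil progenitors and 2 were higher, with a median of -4.38 against -0.95 over all genes. Of all genes tested, 50.7% were called lower and 28.4% higher. Aurkb had 1 UMI in the 6 mature neutrophil sums together, with 0 in 5 mice and 1.60 CPM in the highest, and 53.6 to 65.1 CPM (median 59.6) in neutrophil progenitors. Its fitted difference of -6.42 (adjusted p = 1.8e-19) rests on that UMI, so its size is uncertain. Top2a, the topoisomerase that untangles sister chromatids, had 2.07 to 34.7 CPM (median 13.9) in mature neutrophils and 536.4 to 662.4 CPM (median 595.3) in neutrophil progenitors. It differed by -4.88 ± 0.29 (adjusted p = 6.0e-25). Tmpo (lamina-associated polypeptide 2, -0.06), Kif23 (-0.24) and Pttg1 (0.30) were not called.

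The 2 genes that were higher are Lbr and Hjurp. Lbr shapes the lobed neutrophil nucleus, and its loss causes the Pelger-Huet anomaly. It had 366.1 to 579.7 CPM (median 397.2) in mature neutrophils and 141.4 to 162.8 CPM (median 149.1) in neutrophil progenitors, with myelocytes in between (263 to 363 CPM, median 306.9). Every mature neutrophil value was above every myelocyte value, and every myelocyte value was above every neutrophil progenitor value. The difference between mature neutrophils and neutrophil progenitors was 2.08 ± 0.09 (adjusted p = 1.0e-31). Hjurp had 113.9 to 208.2 CPM (median 158.4) in mature neutrophils and 91.3 to 108.9 CPM (median 101.7) in neutrophil progenitors, without overlap, and a difference of 1.24 ± 0.13 (adjusted p = 4.1e-14). Myelocytes had 139.6 to 181.5 CPM (median 169.2), a range that overlapped with mature neutrophils. Both calls were kept under all 13 alternatives that gave a value. Lbr lies on chr1:181815335-181843046 and overlaps Dnah14 on the other strand, and Hjurp lies on chr1:88262471-88277633 (both GRCm38, minus strand).

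Other cell cycle genes, from lists chosen alongside the members, were set beside them. Of 42 further G2M genes, 39 were called higher in multipotent progenitors, 39 in neutrophil progenitors, 39 (and 2 lower) in erythroid progenitors and 42 in megakaryocyte progenitors, each against the HSC gate. Among them, the motor gene Kif15 rose by 0.95 in multipotent progenitors and the cyclin gene Ccna2 by 2.68 in erythroid progenitors. In mature neutrophils 41 of the 42 were lower than in neutrophil progenitors. Of 43 S phase genes, 36 were higher in multipotent progenitors, 41 in neutrophil progenitors, 41 in erythroid progenitors and 39 in megakaryocyte progenitors than in the HSC gate, among them Mcm5 of the replicative helicase (0.74 in multipotent progenitors) and Rrm2 of ribonucleotide reductase (2.65 in neutrophil progenitors). Of 10 cell cycle inhibitors, 3 were called higher and 2 lower in multipotent progenitors, 2 higher and 3 lower in neutrophil progenitors, 3 higher and 7 lower in erythroid progenitors, and 4 higher and 3 lower in megakaryocyte progenitors. Among them Cdkn1c (p57), which is known to hold stem cells in quiescence, was lower than in the HSC gate by -2.49 in multipotent, -5.07 in neutrophil, -4.79 in erythroid and -2.98 in megakaryocyte progenitors. In mature neutrophils 6 inhibitors were higher and 2 lower than in neutrophil progenitors, with Btg2 at 5.39 (SE 0.16), Cdkn2d (p19) at 4.10 and Cdkn1b (p27) at 2.87.

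The S phase and mitosis genes separated at the myelocyte stage. Relative to neutrophil progenitors, 3 of the 43 S phase genes were called higher and 35 lower in myelocytes, with a median of -0.87, where the members had a median of 0.63. The ratio of summed S phase UMIs to summed member UMIs needs no scaling between gates. It was 0.26 to 0.34 in myelocytes and 0.78 to 0.92 in neutrophil progenitors, with no overlap between the 6 mice of either gate. Mature neutrophils had 0.21 to 0.37, but there Lbr, Hjurp and Tmpo made up 58.8 to 75.5% of the member sum. Without these 3 genes, a step added after the levels were seen, the ratio was 0.76 to 0.89 in mature neutrophils, 0.29 to 0.39 in myelocytes and 0.84 to 1.01 in neutrophil progenitors. The HSC gate had 0.87 to 1.13, multipotent progenitors 0.78 to 1.09 and erythroid progenitors 0.76 to 0.82. Pro-B/pre-B cells (0.39 to 0.57) and monocytes (0.44 to 0.73) lay between. In myelocytes the members held more than 2 times the UMIs of the S phase genes in every mouse, with and without these 3 genes.

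**Figure D4:**
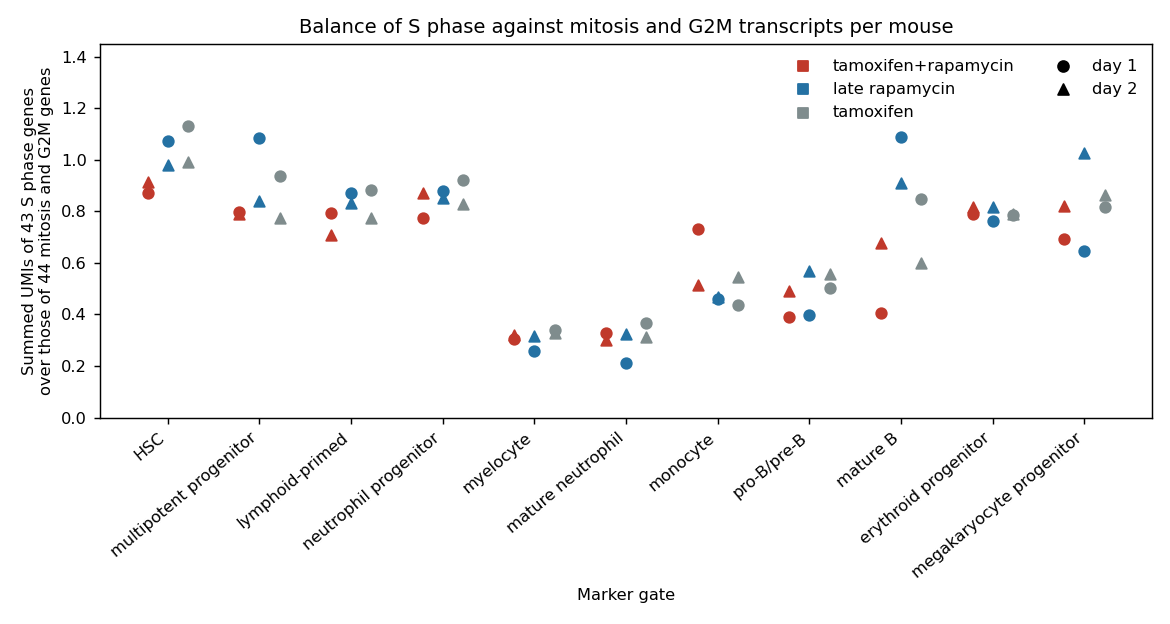
Summed UMIs of 43 S phase genes divided by those of the 44 mitosis and G2M genes (vertical axis) in 11 marker gates (horizontal axis), 1 point per mouse, coloured by treatment and shaped by processing day. Myelocytes (0.26 to 0.34) lie below the neutrophil progenitors (0.78 to 0.92), and the mature neutrophil points (0.21 to 0.37) rest mostly on Lbr, Hjurp and Tmpo.

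How closely each gene followed the core genes was described within cells. Over all kept cells, the level in cells with at least 2 core UMIs was divided by that in cells with none, in each mouse, for the 34 members outside the core list. The median ratio was above 5 for 25 of them and above 2 for 32. The highest were Hmmr (19.4), the kinesin Kif2c, which depolymerises microtubules (13.1), Kif11 (12.9) and Gtse1 (12). The lowest were Pttg1 (1.22), Lbr (1.30), Hjurp (2.08) and Tmpo (2.16). Cells with core UMIs were larger libraries, with a median of 5255 UMIs against 2883 in the HSC gate, so these ratios are of CPM levels and not of UMIs per cell.

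The single-gene exceptions held within the cells with core UMIs. There Cep55 had a mean of 5.75 CPM in erythroid progenitors (4.39 to 8.80 over 6 mice), against 139 CPM in the HSC gate (102 to 174), 136 CPM in multipotent progenitors and 197 CPM in pro-B/pre-B cells. In erythroid progenitors its level was similar in the cells without core UMIs (4.35 CPM). Kif23 had 60.5 CPM in erythroid progenitors (53.5 to 68.5), against 242 CPM in the HSC gate (205 to 284). Ect2 had 40.2 CPM in megakaryocyte progenitors (18.8 to 80.5), against 139 CPM in the HSC gate (91.8 to 187). Ckap2l had 380 CPM in megakaryocyte progenitors (292 to 464), against 169 CPM in the HSC gate (117 to 209), and in cells without core UMIs 98.7 CPM and 6.21 CPM in the same order of gates. In none of these 4 cases did the 6 mice of the gates overlap. These genes were picked for their difference between the same gates, so the values are a description.

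Treatments were compared within 5 gates, with 2 mice each and the processing day as a block (edgeR quasi-likelihood test, 3 comparisons that share mice with each other). Of the 15 tests per gene, only Pttg1 was called among the members, in 4. Late rapamycin mice differ from both other groups in tamoxifen as well as in rapamycin or its day. In comparisons with them these cannot be told apart, and no group was untreated. Nothing says whether the mice were littermates, and with 2 mice per treatment the p-values measure the spread between few animals.

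In the HSC gate none of the 43 members tested (Gtse1 was too low) was called. Tamoxifen+rapamycin against tamoxifen gave 0 members, 4 at an unadjusted p under 0.05, with 0.104% of all genes called. Tamoxifen+rapamycin against late rapamycin gave 0 members, 5 at an unadjusted p under 0.05, with 0.265% of all genes called. Late rapamycin against tamoxifen gave 0 members, 16 at an unadjusted p under 0.05, with 0.341% of all genes called. DESeq2 called no member in any of the 3. Of the 10556 genes tested, 538, 1144 and 961 had an unadjusted p under 0.05, in the same order of comparisons. For late rapamycin against tamoxifen 38 of the 43 differences were above 0, with a median of 0.37 against 0.00 over all genes. Of the other lists, 35 of 42 further G2M genes (median 0.24) and 41 of 43 S phase genes (median 0.32) were above 0. Top2a had 335 and 337 CPM in tamoxifen+rapamycin mice, 359 and 414 CPM in late rapamycin mice, and 302 and 248 CPM in tamoxifen mice. Both late rapamycin values were the highest, and the difference from tamoxifen was 0.51 ± 0.12 (adjusted p = 0.072). Cenpe, the kinetochore motor that aligns chromosomes, had 84.7 and 65.8 CPM in tamoxifen+rapamycin mice, 77.0 and 107 CPM in late rapamycin mice, and 64.1 and 52.8 CPM in tamoxifen mice, with a late rapamycin to tamoxifen difference of 0.74 ± 0.19 (adjusted p = 0.16).

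The late rapamycin result depended on single mice. Without late rapamycin replicate 1, 7 members were called against tamoxifen, with 1.1% of all genes called. Without late rapamycin replicate 2, 1 member was called (1.89% of all genes), and without tamoxifen replicate 1 also 1 (0.531%). Without late rapamycin replicate 2, 26 of the 43 differences were above 0, with a median of 0.16, and 5 had an unadjusted p under 0.05. Without tamoxifen replicate 2, 30 were above 0, with a median of 0.21, and 2 had an unadjusted p under 0.05. Stem cell markers moved with it. The summed level of the HSC gate markers was 5650 and 5965 CPM in tamoxifen+rapamycin mice, 4687 and 5492 CPM in late rapamycin mice, and 5661 and 6010 CPM in tamoxifen mice, so that late rapamycin was the lowest on each day. The part of that difference in the result was not tested.

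In multipotent progenitors none of the 44 members was called by edgeR or DESeq2. Tamoxifen+rapamycin against tamoxifen had 0.0366% of all genes called and 1 member at an unadjusted p under 0.05, late rapamycin against tamoxifen 0.329% and 2 members, and tamoxifen+rapamycin against late rapamycin 0.403% and 3 members. The median member differences were 0.07, -0.05 and 0.09 in that order. Of the 10928 genes tested, 547, 1307 and 1543 had an unadjusted p under 0.05, again in that order. In neutrophil progenitors none was called either. Tamoxifen+rapamycin against tamoxifen had 0% of all genes called and 0 members at an unadjusted p under 0.05. Late rapamycin against tamoxifen had 0.00912% and 1 member, and tamoxifen+rapamycin against late rapamycin 0% and 2 members. Of the 10959 genes tested, 184, 718 and 761 had an unadjusted p under 0.05, in that order. Without late rapamycin replicate 2, the comparison then rests on replicate 1, which stood apart, and 18 members (40.9%) were called for late rapamycin against tamoxifen, against 34.7% of all genes in that fit. For tamoxifen+rapamycin against late rapamycin 17 members (38.6%) were called, against 35.7% of all genes, so the members' shares lay near those of all genes.

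In pro-B/pre-B cells 1 member was called for tamoxifen+rapamycin against tamoxifen (0.218% of all genes called), 0 for late rapamycin against tamoxifen (0.109%, 7 members at an unadjusted p under 0.05) and 1 for tamoxifen+rapamycin against late rapamycin (0.218%). Of the 9158 genes tested, 718, 612 and 522 had an unadjusted p under 0.05, in the same order of comparisons. For late rapamycin against tamoxifen 41 of the 44 member differences were above 0, with a median of 0.22. For tamoxifen+rapamycin against late rapamycin 32 were above 0, with a median of 0.06. For tamoxifen+rapamycin against tamoxifen 43 of the 44 differences were above 0, with a median of 0.31 against -0.002 over all genes. Of 42 other G2M genes 41 were above 0 (median 0.22), and of 43 S phase genes 21 (median -0.002). These genes were measured in the same mice, so they are not independent observations. Among the members 26 had an unadjusted p under 0.05. That last count was 3 without the day block, 8 with DESeq2, and 6 to 9 when a tamoxifen or tamoxifen+rapamycin mouse was left out, while 40 to 44 differences stayed above 0 in these fits. Cyclin B1 (Ccnb1) had 170 and 143 CPM in tamoxifen+rapamycin mice, 133 and 96.8 CPM in late rapamycin mice, and 108 and 96.9 CPM in tamoxifen mice. Within each day tamoxifen+rapamycin was the highest, and its difference from tamoxifen was 0.61 ± 0.14 (adjusted p = 0.080). Leaving out late rapamycin replicate 1 or replicate 2 raised the number called for tamoxifen+rapamycin against tamoxifen to 19, with 2.4% and 2.48% of all genes called, and leaving out tamoxifen+rapamycin replicate 1, tamoxifen replicate 1 or tamoxifen replicate 2 lowered it to 0. Within each day, cells of this gate held more UMIs in tamoxifen+rapamycin mice (median 2166 and 1556 per cell) than in tamoxifen mice (1706 and 1370), and the part of depth in the result was not tested. In erythroid progenitors 1 member was called for tamoxifen+rapamycin against tamoxifen (0.962% of all genes called), 0 for late rapamycin against tamoxifen (1.92%, 6 members at an unadjusted p under 0.05) and 1 for tamoxifen+rapamycin against late rapamycin (0.579%). The 0 counts of both gates were also 0 with DESeq2. In erythroid progenitors 1119, 1456 and 1134 of the 10712 genes tested had an unadjusted p under 0.05, in the order of comparisons above. Hjurp had 147 and 139 CPM in tamoxifen+rapamycin mice, 125 and 147 CPM in late rapamycin mice, and 165 and 167 CPM in tamoxifen mice, with a late rapamycin to tamoxifen difference of -0.31 ± 0.08 (adjusted p = 0.060).

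The 4 calls were all Pttg1 (chr11:43420250-43426251, GRCm38, minus strand). It encodes securin, the inhibitor that holds separase until anaphase, and is expressed late in the cycle in most dividing cells. In pro-B/pre-B cells Pttg1 had 84.1 and 85.2 CPM in tamoxifen+rapamycin mice, 21.0 and 34.8 CPM in late rapamycin mice, and 27.0 and 32.0 CPM in tamoxifen mice. Both tamoxifen+rapamycin mice lay above the other 4. The difference was 1.52 ± 0.21 from tamoxifen (adjusted p = 0.00055) and 1.39 ± 0.23 from late rapamycin (adjusted p = 0.010), where late rapamycin replicate 1 gave 3 UMIs. In erythroid progenitors Pttg1 had 42.9 and 57.8 CPM in tamoxifen+rapamycin mice, 26.8 and 36.9 CPM in late rapamycin mice, and 29.8 and 33.4 CPM in tamoxifen mice. Again both lay above the other 4, with a difference of 0.64 ± 0.11 from tamoxifen (adjusted p = 0.015) and 0.66 ± 0.11 from late rapamycin (adjusted p = 0.020). DESeq2 called none of the 4, and without the day block the call in pro-B/pre-B cells against late rapamycin and both calls in erythroid progenitors were lost. No member was called in pro-B/pre-B cells against late rapamycin without tamoxifen+rapamycin replicate 2, late rapamycin replicate 2 or tamoxifen replicate 2. In erythroid progenitors none was called in either comparison without tamoxifen+rapamycin replicate 2, nor against tamoxifen without tamoxifen replicate 2.

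In other gates the same order appeared for some. Pttg1 had 37.1 and 36.0 CPM in neutrophil progenitors of tamoxifen+rapamycin mice, 26.4 and 24.4 CPM in those of late rapamycin mice, and 27.9 and 29.5 CPM in those of tamoxifen mice. In myelocytes it had 21.3 and 31.6 CPM in tamoxifen+rapamycin mice, 8.02 and 12.9 CPM in late rapamycin mice, and 8.49 and 10.5 CPM in tamoxifen mice. In the HSC gate the values overlapped, with 19.6 and 30.0 CPM in tamoxifen+rapamycin mice, 15.4 and 26.5 CPM in late rapamycin mice, and 23.0 and 25.9 CPM in tamoxifen mice. Both tamoxifen+rapamycin mice were above the other 4 in 4 of the 11 gates. The tamoxifen+rapamycin to tamoxifen difference was not shown to be unequal between gates (pro-B/pre-B against HSC 1.46 ± 0.38, adjusted p = 0.13, edgeR).

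Splitting the cells by core UMIs, a step added after these values were seen, separated the mice further. Over all kept cells with at least 2 core UMIs, Pttg1 had 53.8 and 64.4 CPM in tamoxifen+rapamycin mice, 22.1 and 30.5 CPM in late rapamycin mice, and 26.0 and 29.9 CPM in tamoxifen mice. In cells with no core UMI it had 14.3 and 17.9 CPM in tamoxifen+rapamycin mice, 20.2 and 27.1 CPM in late rapamycin mice, and 22.0 and 23.9 CPM in tamoxifen mice. Tamoxifen+rapamycin mice were thus the highest in the first and the lowest in the second. The ratio of both levels was 3.77 and 3.60 in tamoxifen+rapamycin mice and 1.10 to 1.25 in the other 4 mice. Of the other 33 members outside the core list, the largest gap, expressed as the lower tamoxifen+rapamycin ratio over the highest of the other 4, was 1.12 (Tubb4b), against 2.88 for Pttg1.

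A fit of the difference of differences, with the mouse as block, gave 1.80 ± 0.14 for tamoxifen+rapamycin against late rapamycin (adjusted p = 0.018). Pttg1 was the only gene called among 14339 (0.00697%). The call was lost without either tamoxifen+rapamycin mouse (adjusted p = 0.65 and 0.71) or either tamoxifen mouse (0.068 and 0.071). Against tamoxifen the value was 1.57 ± 0.14 (adjusted p = 0.055), with 0% of 14339 genes called. In the cells with core UMIs alone the difference was 1.06 ± 0.10 from tamoxifen (adjusted p = 0.42 by edgeR and 0.00030 by DESeq2) and 1.08 ± 0.10 from late rapamycin (adjusted p = 0.25 and 4.4e-05). The make-up of these cells differed between mice, with pro-B/pre-B cells at 20.5 and 17.0% in tamoxifen+rapamycin mice, 1.95 and 9.32% in late rapamycin mice, and 11.9 and 9.24% in tamoxifen mice. In cells with core UMIs both tamoxifen+rapamycin mice lay above the other 4 in each plotted gate except multipotent progenitors, where the values overlapped. The HSC gate had 74.7 and 91.8 CPM in the HSC gate of tamoxifen+rapamycin mice, 25.4 and 26.3 CPM in that of late rapamycin mice, and 20.4 and 11.1 CPM in that of tamoxifen mice, on 3 to 24 UMIs each. In myelocytes with core UMIs Pttg1 had 57.1 and 62.1 CPM in tamoxifen+rapamycin mice, 8.31 and 10.7 CPM in late rapamycin mice, and 10.7 and 8.02 CPM in tamoxifen mice.

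**Figure D5:**
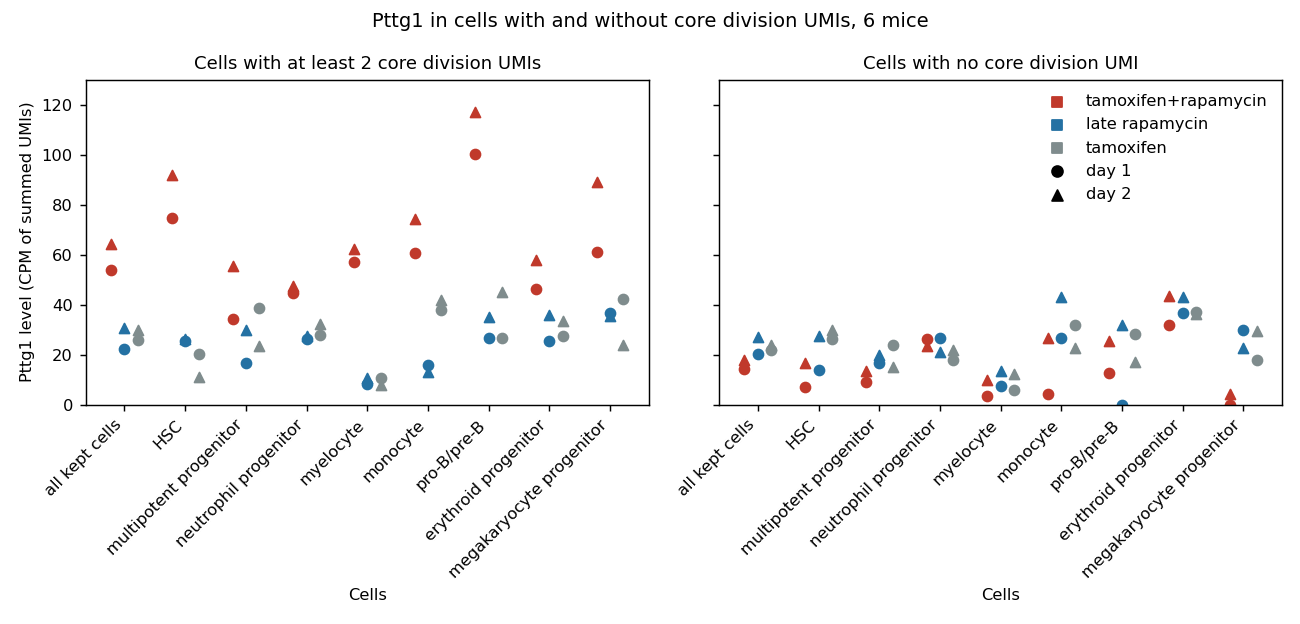
Pttg1 level in CPM of summed UMIs (vertical axis) in all kept cells and 8 marker gates (horizontal axis), in cells with at least 2 core division UMIs (left) and with none (right), 1 point per mouse, coloured by treatment and shaped by processing day. Over all kept cells with core UMIs the tamoxifen+rapamycin mice lie at 53.8 and 64.4 CPM, above the other 4 mice at 22.1 to 30.5 CPM. In cells without core UMIs they lie at 14.3 and 17.9 CPM, below the other 4.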

How the data were processed

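Single-cell RNA was measured in 2 pools, 1 per processing day, each of 3 hashtagged mice of 3 treatments. The deposited matrices hold raw UMI counts per gene or hashtag and barcode. Per the submitters' processing notes they were made with Cell Ranger 7.0.0 on mm10, whereas 8.0.1 stands in the headers of the matrices, and intron counting is not given in the sources used here. Barcodes with 1 hashtag (21862 on day 1, 18881 on day 2) were kept from 500 detected genes and 1000 UMIs upwards, with no more than 10% of UMIs mitochondrial, and 1473 and 1154 likely doublets within a mouse were removed. A cell entered a gate when its mean marker z-score was at least 0.5 and led the next gate by 0.25, and 7780 cells stayed ungated. Counts were summed per mouse and gate and tested with edgeR 4.0.16 (R 4.3.3, TMM, quasi-likelihood, Benjamini-Hochberg), with DESeq2 1.42.0 as an alternative. Gates needed 50 cells in every mouse.

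All 44 members are described. From the other lists, up to 4 genes per comparison with the smallest adjusted p could be named. The member list uses no measured value as a criterion, but it, the other lists and the tests were proposed with earlier results of these data known. The day was a block in the treatment fits because the design text calls the days batches. The correlation of deviations between mice of the same day was 0.02 to 0.32. Mouse positions came from GENCODE M21 and promoters from RefSeq. The statistical scripts were tested on simulated counts. Other scalings, filters, gates, doublet handling, blocks and leaving out each mouse were tried.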

Additional observations from a re-analysis of the deposited data

Results flagged for a closer look

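In the mature B gate, the summed level of the 44 genes in tamoxifen+rapamycin replicate 1 was 7435 CPM, far from the other 5 mice (1678 to 2696 CPM). Of 22 groups of 6 samples examined for such a gap, chance alone flags about 1 in 20. The gate held 85 cells in that mouse, and its share of cells with core division UMIs was 18.8%. That share was 6.19 to 18.8% over the mice of day 1 and 1.96 to 4.43% over those of day 2.

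Cells outside the compared gates also carried core division UMIs, counted over all mice together after thinning, with exact 95% intervals that cover counting error only. Basophil and mast cells had 32.7% (80 of 245 cells, interval 26.8 to 38.9%), cells gated on macrophage markers 22.7% (10 of 44, 11.5 to 37.8%), plasmacytoid dendritic cells 15.7% (44 of 280, 11.7 to 20.5%) and T and NK cells 9.44% (22 of 233, 6.01 to 13.9%). The ungated cells had 23.5% (1825 of 7780, 22.5 to 24.4%). The cells gated on macrophage markers had a median of 3393 CPM of HSC markers beside 1059 CPM of macrophage markers, so the name is uncertain. All lie above the mean of 0.28% in mature neutrophils.

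For Pttg1 the difference between cells with and without core division UMIs was itself unequal between treatments, by 1.80 on the log2 scale for tamoxifen+rapamycin minus late rapamycin (edgeR, adjusted p = 0.018). This step was added after the values were seen. The call was lost when either tamoxifen+rapamycin mouse (adjusted p = 0.65 and 0.71) or either tamoxifen mouse (0.068 and 0.071) was left out, and the same difference against tamoxifen was not called (adjusted p = 0.055). Whether litter or genetic background differs between the mice was not tested and is not given in the labels.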

How the results depend on the processing

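Counts of members called are given here for settings that changed them by over 1.5 times. "The cause was not tested" holds for each except where fewer samples were used. The share of all genes called in the same fits is not given here, so these counts are not a result about the members. Of 433 alternative values for 33 results, 357 stayed within a set limit and 76 moved, 32 of them without leaving out a mouse. The limit was 1.5 times for counts. For the mean shares of cells with core UMIs in the HSC and erythroid progenitor gates it was the SD over the mice. A larger gate margin gave 27 higher in multipotent progenitors against the HSC gate, and 4 higher and 0 lower for lymphoid-primed against multipotent progenitors. For that comparison leaving out the mouse block gave 0 higher and 0 lower, and no doublet removal 0 lower. Library totals gave 1 lower in neutrophil progenitors and 2 lower in erythroid progenitors. For myelocytes against neutrophil progenitors library totals gave 14 higher and 15 lower, DESeq2 size factors and DESeq2 4 lower each, and no doublet removal 3 lower. With no low-count filter late rapamycin against tamoxifen gave 3 in the HSC gate and 1 in erythroid progenitors, tamoxifen+rapamycin against late rapamycin 1 in the HSC gate, and tamoxifen+rapamycin against tamoxifen 3 in pro-B/pre-B cells and 2 in erythroid progenitors. The larger margin also gave 3 in pro-B/pre-B cells for tamoxifen+rapamycin against tamoxifen. DESeq2 gave 0 for tamoxifen+rapamycin against tamoxifen and against late rapamycin in both of these gates. No replicate block, that is without pairing mice of 1 day, gave 0 for tamoxifen+rapamycin against late rapamycin in both and against tamoxifen in erythroid progenitors. It moved no other count of members called at an adjusted p under 0.05 by over 1.5 times. In pro-B/pre-B cells it lowered the members at an unadjusted p under 0.05 to 3, against 26 with the block, for tamoxifen+rapamycin against tamoxifen, and to 0, against 7, for late rapamycin against tamoxifen.

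The mean share of cells with core UMIs moved to 22.0% in the HSC gate and 83.1% in the erythroid progenitor gate with at least 1 UMI, to 20.8% and 92.4% without thinning, and to 8.45% and 69.7% with the larger margin. The erythroid gate stayed highest under each alternative tried for these shares.

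Leaving out 1 mouse at a time moved these counts. Lymphoid-primed against multipotent progenitors gave 0 to 1 higher and 0 to 1 lower, megakaryocyte progenitors against the HSC gate 0 to 1 lower, and myelocytes against neutrophil progenitors 1 to 3 lower. Late rapamycin against tamoxifen gave 0 to 7 in the HSC gate, 0 to 1 in multipotent progenitors, 0 to 18 in neutrophil progenitors, 0 to 1 in pro-B/pre-B cells and 0 to 6 in erythroid progenitors. Tamoxifen+rapamycin against late rapamycin gave 0 to 1 in the HSC gate, 0 to 1 in multipotent progenitors, 0 to 17 in neutrophil progenitors, 0 to 1 in pro-B/pre-B cells and 0 to 8 in erythroid progenitors. Tamoxifen+rapamycin against tamoxifen gave 0 to 19 in pro-B/pre-B cells and 0 to 2 in erythroid progenitors. Where a treatment was left with 1 mouse, that mouse was assumed to vary like the others. Except where shares are given above, the treatment ranges stand without the share of all genes called in the same fits. They are therefore not a result about the members.

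Calls kept under every alternative numbered 26 of 41 in multipotent, 37 of 43 in neutrophil, 41 of 42 in erythroid and 38 of 41 in megakaryocyte progenitors against the HSC gate, 43 of 44 in pro-B/pre-B against mature B cells, 41 of 41 in mature neutrophils and 16 of 37 in myelocytes. Under the stricter cell filter 8 gates and under the larger margin 9 gates held 50 cells in every mouse, so pro-B/pre-B against mature B cells, mature neutrophils against neutrophil progenitors and megakaryocyte progenitors against the HSC gate have no value under some of these. Shallow gates limit the smallest genes, such as Gtse1.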
